A study of Rattus norvegicus with 72 samples.

Results

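Solute carriers of the Slc4, Slc5, Slc8, Slc9, Slc12, Slc20, Slc24, Slc26 and Slc34 families move bicarbonate, sodium, chloride, calcium, protons, iodide, sulfate and phosphate across cell membranes. Their transcripts were followed in rat mammary gland, liver and adipose tissue. The members are the probe sets whose only platform gene symbol begins with 1 of these family names followed by a digit, which gave 50 genes on 64 probe sets, of 14217 gene symbols on the array. Of these genes 13 had more than 1 probe set, and each was described by its brightest probe set over the 60 standard gravity and hypergravity arrays. The symbol rule also took in Slc4a1ap, an adaptor protein named after the anion exchanger it binds and not itself a transporter. By role the set held 7 bicarbonate and borate transporters, 8 sodium-coupled solute cotransporters, 7 sodium-calcium exchangers, 6 sodium-proton exchangers, 8 cation-chloride cotransporters, 5 phosphate transporters and 8 anion exchangers and sulfate transporters, beside Slc4a1ap.

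The study measured RNA of lactating and pregnant rats in hypergravity and at standard gravity, with 5 arrays in each of the 12 combinations of tissue, stage and gravity, and an array is named here by its tissue letter (M for mammary gland, L for liver, A for adipose tissue), its number, which is that of the rat, and H or S for hypergravity or standard gravity. A separate set of mammary arrays from pregnant rats held 4 arrays each of rats in microgravity (codes with FLT), of flight controls (codes with FDS) and of vivarium controls (codes with VIV). The labels give no strain, age, gestation or lactation day, duration or strength of the gravity exposure. Arrays M210H and A210H were left out: on M210H the mammary list averaged 4.13 and the adipocyte list 10.72 on the log2 scale, and on A210H the mammary list averaged 11.64 and the adipocyte list 8.49. A210H also carried skeletal muscle markers, which averaged 8.09. With both arrays left out, 4 arrays of lactating hypergravity mammary gland and 4 of lactating hypergravity adipose tissue remained. In the arrays used, the mammary and milk marker list averaged from 11.16 to 11.77 on every standard gravity and hypergravity mammary array. Skeletal muscle markers stood more than 2 log2 units above the median of the tissue on M212H, M50H, A217H, A48S, VIVA and VIVC, and hepatocyte markers did so on M56H and M52S. Values are log2 RMA signals, differences are log2 differences of group means, and a gene is called where the limma p adjusted by Benjamini and Hochberg over all 31042 probe sets was under 0.05.

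In epithelia the sodium pump keeps cell sodium low, and the carriers of these families use that gradient, or the gradients it sets up, to load or extrude other ions. The lactating mammary gland secretes a fluid low in sodium and chloride and rich in calcium, phosphate and iodide, so phosphate, iodide and sugar carriers of these families are known from its secretory cells. In liver, sodium-bicarbonate cotransport and sulfate exchange take part in bile formation and in sulfate handling, and in adipose tissue the families are better known for control of cell volume and pH.

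Promoter sequences are shown for 5 genes on which the mammary results turn, so that the letters can be read beside the values. They come from RefSeq on the GRCr8 assembly, run from 250 bases before to 50 bases after an annotated start, and were found for 43 of the 50 genes. Capitals mark the matches to TTCNNNGAA, the spaced palindrome bound by STAT factors, or to CACGTG, an E-box. The window of Slc4a4, the electrogenic sodium-bicarbonate cotransporter, is chr14:19468233-19468532 on the minus strand. That of Slc34a2, the sodium-phosphate cotransporter of lung, gut and mammary epithelium, is chr14:62143023-62143322 on the minus strand. Slc5a3, the sodium and myo-inositol cotransporter, has its window at chr11:44799537-44799836 on the plus strand. Slc5a6, the sodium-dependent carrier of biotin, pantothenate and lipoate, has its window at chr6:31040150-31040449 on the plus strand. Slc9a4, a sodium-proton exchanger, has its window at chr9:50320698-50320997 on the plus strand.
Slc4a4: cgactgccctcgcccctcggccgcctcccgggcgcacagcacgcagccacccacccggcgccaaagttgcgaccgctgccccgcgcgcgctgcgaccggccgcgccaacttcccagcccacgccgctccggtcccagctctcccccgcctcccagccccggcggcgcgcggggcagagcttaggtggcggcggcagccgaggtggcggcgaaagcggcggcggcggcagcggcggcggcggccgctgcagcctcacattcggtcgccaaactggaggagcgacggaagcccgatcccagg
Slc34a2: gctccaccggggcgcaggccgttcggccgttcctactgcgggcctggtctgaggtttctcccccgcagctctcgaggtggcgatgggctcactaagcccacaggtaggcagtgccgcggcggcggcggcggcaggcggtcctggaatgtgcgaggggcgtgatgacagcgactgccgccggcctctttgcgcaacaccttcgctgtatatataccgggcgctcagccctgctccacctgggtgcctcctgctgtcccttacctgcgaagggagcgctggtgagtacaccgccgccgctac
Slc5a3: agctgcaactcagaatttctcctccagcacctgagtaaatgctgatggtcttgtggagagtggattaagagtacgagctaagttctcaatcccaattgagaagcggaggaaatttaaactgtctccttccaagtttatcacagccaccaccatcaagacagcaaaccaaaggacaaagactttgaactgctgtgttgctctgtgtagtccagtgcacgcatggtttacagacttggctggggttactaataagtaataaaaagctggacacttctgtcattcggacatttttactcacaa
Slc5a6: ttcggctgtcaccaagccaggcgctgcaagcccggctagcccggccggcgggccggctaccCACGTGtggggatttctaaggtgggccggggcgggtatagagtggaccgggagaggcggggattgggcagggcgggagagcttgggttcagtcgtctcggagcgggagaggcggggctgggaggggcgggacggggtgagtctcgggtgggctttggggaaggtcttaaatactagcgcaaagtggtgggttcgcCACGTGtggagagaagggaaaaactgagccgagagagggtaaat
Slc9a4: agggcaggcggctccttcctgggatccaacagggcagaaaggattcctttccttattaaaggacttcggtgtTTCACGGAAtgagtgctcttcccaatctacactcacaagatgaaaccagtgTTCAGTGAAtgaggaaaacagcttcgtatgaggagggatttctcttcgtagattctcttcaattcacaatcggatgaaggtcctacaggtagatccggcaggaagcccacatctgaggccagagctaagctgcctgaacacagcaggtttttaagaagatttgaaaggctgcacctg

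The STAT letters were found in 2 of the 43 promoters (Slc12a1, and Slc9a4 with 2 matches), which is 4.65% of them against 8.87% of the 33469 promoters in the table. The E-box letters were found in 8 of 43 (18.6%), namely Slc5a1, Slc5a6, Slc9a3, Slc9a5, Slc12a7, Slc12a9, Slc24a4 and Slc26a2, against 6.42% of all promoters. The cyclic AMP response letters TGACGTCA were in 0 of 43, against 1.83% of all promoters. All these motifs read the same on both strands and none overlapped another in the windows shown. Guanine and cytosine made up a median of 62.3% of the members' windows and 51.7% of all windows, and the share ran from 43.3% for Slc5a3 to 78% for Slc4a4 among those shown. Windows of Slc4a4, Slc34a2 and Slc5a6 lie inside the annotated gene spans (chr14:19125394-19577379, chr14:62123313-62153020 and chr6:31039865-31051671) and not at their outer ends, so other starts of these genes were not searched.

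A first question is how lactation differed from pregnancy in mammary gland. At standard gravity 8 of the 50 genes rose and 7 fell in lactation. Over all probe sets 34.1% were called, 16.8% higher and 17.3% lower, so the members were called at close to the rate of the whole array. Their median difference was -0.03 against -0.10 over all genes. Sodium-coupled solute cotransporters (3 higher of 8), sodium-proton exchangers (2 of 6) and phosphate transporters (2 of 5) held 7 of the 8 genes that rose, and Slc26a3 was the other. Of those that fell, 2 of 7 were bicarbonate and borate transporters, 2 of 8 were cation-chloride cotransporters and 2 of 8 were anion exchangers, beside Slc4a1ap.

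In hypergravity 6 members rose and 9 fell in lactation relative to pregnancy, where 29.3% of all probe sets were called, 14.6% in each direction. The members' median difference was -0.10 and that of all genes -0.11. Cation-chloride cotransporters held 2 higher and 3 lower of 8, and anion exchangers and sulfate transporters 3 lower of 8. Both stage comparisons called 5 genes in the same direction, which is 5 of 15 in each, and 0 in opposite directions: Slc34a2 and Slc5a3 were higher in lactation in both, and Slc26a6, Slc26a8 and Slc4a1ap lower. Over all probe sets 5954 were called in both in the same direction, which is 56.3% of those called at standard gravity and 65.6% of those called in hypergravity, and 189 in opposite directions. These comparisons use different arrays and 1 shared estimate of the spread. In all, 25 of the 50 genes were called in a mammary stage comparison, and the other 25 were called in no comparison within a tissue or within the microgravity set. Those 25 include all of Slc24a1 to Slc24a4, Slc8a2 and Slc8a3 among the calcium exchangers, Slc4a1 and Slc4a2, the chloride-bicarbonate exchangers of red cells and of most epithelia, Slc4a7 and Slc4a10, and Slc12a1, the kidney cotransporter. They also hold Slc5a2, Slc5a7, Slc5a11 and Slc5a12, Slc9a3, Slc9a5, Slc9a8 and Slc9a9, Slc20a2 and Slc34a1, and Slc26a1, Slc26a2, Slc26a4 and Slc26a5. Many were dim: 26 of the 50 genes had a highest group mean above the array medians (4.32 to 4.56) and 24 did not.

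The gravity comparison in lactation called 3 members higher and 6 lower in hypergravity than at standard gravity, against 9.43% of all probe sets (4.49% higher and 4.94% lower), with medians of -0.03 for the members and 0.02 for all genes. In pregnancy hypergravity called 0 of 50 members, and 0.00322% of all probe sets (1 of 31042). At an unadjusted p under 0.05 that comparison held 1668 probe sets, and the members with the smallest p were Slc8a1 (-0.50, adjusted p = 0.807) and Slc26a2, a sulfate transporter (0.57, unadjusted p = 0.017). The interaction of stage and gravity was called for 4 members, against 4.03% of all probe sets (2.18% higher and 1.85% lower). The map of all 50 genes shows the calls concentrated in the first 3 mammary columns.

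**Figure D1:**
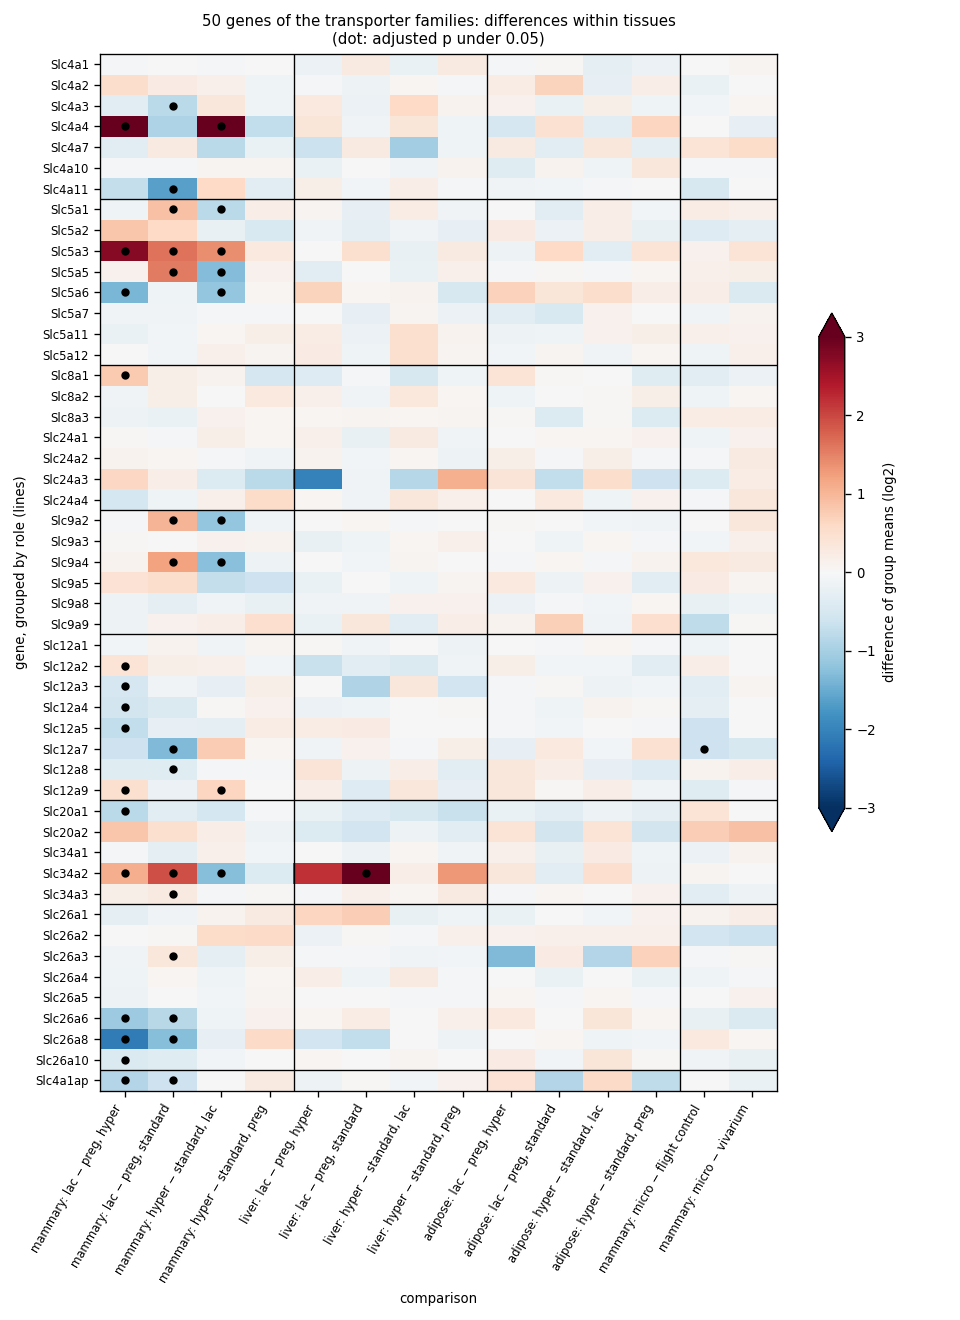
Differences of group means (log2, colour, scale ends at -3 and 3) for the 50 genes (rows, grouped by role) in 14 comparisons (columns); black dots mark adjusted p under 0.05. In mammary gland 15 genes have dots for stage in hypergravity, 15 for stage at standard gravity and 9 for hypergravity in lactation. Liver and microgravity hold 1 dot each.

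Slc4a4 carries sodium and bicarbonate together across the basolateral membrane of many epithelia. In mammary gland its signal was 10.07, 9.15, 9.02 and 9.64 on the lactating hypergravity arrays, and 4.19, 4.81, 4.70, 6.60 and 4.67 on the lactating standard gravity arrays. On pregnant arrays it was 5.16, 4.11, 5.45, 6.59 and 4.53 in hypergravity, and 6.55, 6.24, 5.61, 5.01 and 6.19 at standard gravity. The 4 lactating hypergravity arrays thus stood apart, with no overlap with any of the other 3 standard gravity and hypergravity mammary groups.

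Lactating glands averaged 9.47 ± 0.48 (SD, n = 4) in hypergravity and 4.99 ± 0.93 (n = 5) at standard gravity, a difference of 4.48 ± 0.49 (SE), or 22.2-fold (adjusted p = 9.62e-06). Within hypergravity the lactating glands lay 4.30 ± 0.49 above the pregnant ones, which averaged 5.17 ± 0.95 (19.7-fold, adjusted p = 1.41e-05). At standard gravity the stage difference was -0.93 ± 0.46 and was not called (adjusted p = 0.135). The interaction was 5.23 ± 0.67 (adjusted p = 0.000201). These calls held without each array in turn. Of the arrays left out, A210H, with the mammary marker level given above, stood at 7.32, below the 9.02 to 10.07 of the lactating hypergravity glands in use, and M210H, with adipocyte markers, at 9.85.

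A dimmer probe set of the gene moved the same way by less, 1.28 for gravity in lactation (adjusted p = 0.00142) and 0.89 for stage in hypergravity (adjusted p = 0.00809), and its interaction was 1.06 (adjusted p = 0.0787). With both probe sets averaged the gravity difference in lactation was 2.88, so the size of the change depends on the probe set. Slc4a4 is bright in adipose tissue, where it ran from 7.34 to 10.07, and adipocyte markers in mammary gland averaged 8.37 (8.07 to 8.68) in lactating hypergravity glands and 8.48 (7.98 to 8.77) in lactating standard gravity glands. Of the 9 adipocyte markers 1 was higher and 1 lower in that comparison, with a median of -0.05. Macrophage markers had 3 of 8 higher and 0 lower (median 0.67), with mean levels of the list of 8.42 to 9.10 in lactating hypergravity glands and 7.66 to 8.01 in lactating standard gravity glands. The part of macrophages in the result was not tested. In bulk tissue fewer cells of a type and less RNA per cell cannot be told apart, and this holds for every mammary value here.

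**Figure D2:**
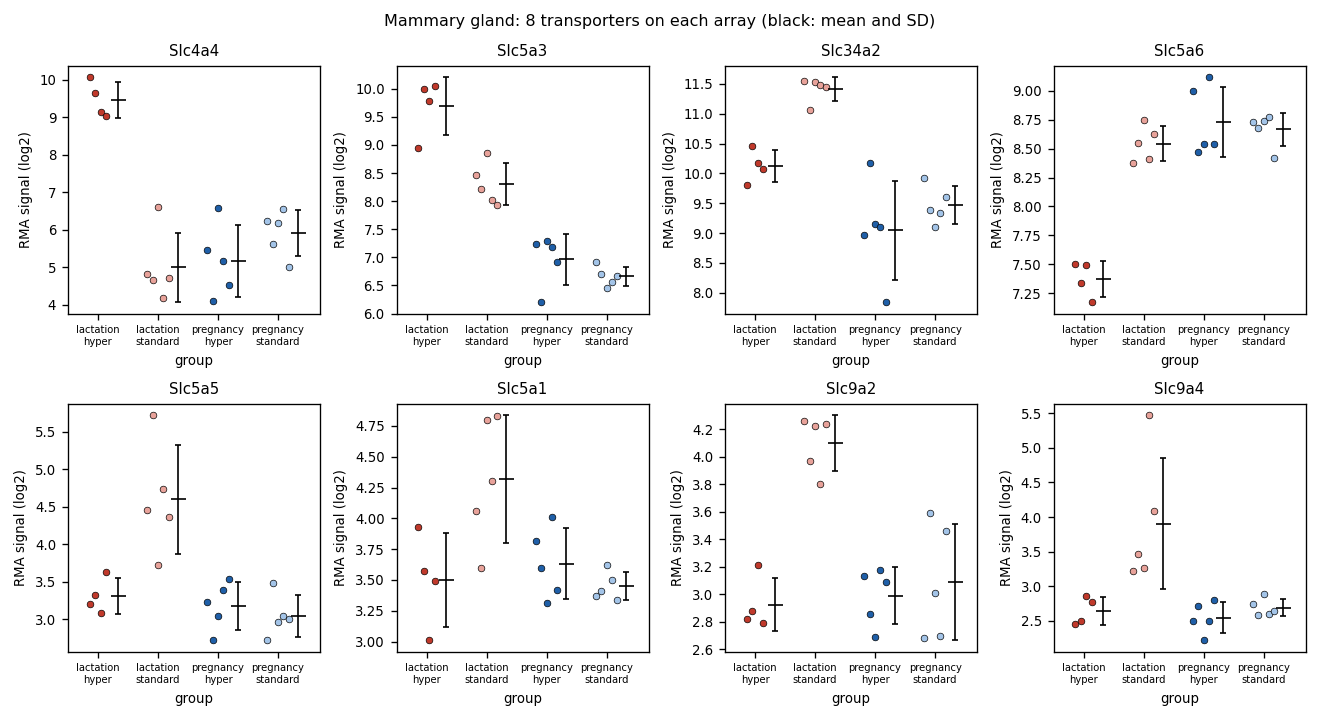
RMA signal (log2, vertical axes, which do not start at 0) of 8 genes on each mammary array in 4 groups (horizontal axes), with the group mean and SD in black. Slc4a4 stands at 9.02 to 10.07 on the lactating hypergravity arrays, above the other 3 groups, and Slc9a2 stands at 3.80 to 4.26 on the lactating standard gravity arrays.

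Slc5a3 brings myo-inositol, an osmolyte, into cells with sodium, and it was higher in lactation than in pregnancy at both gravities. Its signal was 8.94, 9.78, 10.05 and 10 on lactating hypergravity arrays, and 8.02, 8.47, 7.93, 8.85 and 8.22 on lactating standard gravity arrays. Pregnant glands gave 7.19, 6.20, 7.23, 7.29 and 6.92 in hypergravity, and 6.57, 6.92, 6.70, 6.67 and 6.46 at standard gravity. All lactating arrays lay above all pregnant arrays, and the lactating hypergravity arrays above the lactating standard gravity arrays.

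The stage difference was 2.72 ± 0.25 in hypergravity (6.61-fold, adjusted p = 1.66e-06) and 1.63 ± 0.24 at standard gravity (3.11-fold, adjusted p = 5.35e-05). Hypergravity raised it by 1.39 ± 0.25 in lactation (2.62-fold, adjusted p = 0.00119), a call that was lost with M210H kept (0.72, adjusted p = 0.5). The interaction was 1.09 ± 0.34 and was not called (adjusted p = 0.0948). A dimmer probe set of Slc5a3 gave 0.76 for stage in hypergravity (adjusted p = 0.0138) and 0.44 at standard gravity (adjusted p = 0.115).

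Slc34a2 takes up phosphate with sodium at the apical membrane. Mammary signals were 9.81, 10.17, 10.08 and 10.46 in lactating hypergravity glands, and 11.48, 11.55, 11.45, 11.53 and 11.06 in lactating standard gravity glands. In pregnancy they were 9.11, 10.18, 8.96, 9.16 and 7.84 in hypergravity, and 9.34, 9.93, 9.38, 9.61 and 9.10 at standard gravity. Lactating standard gravity glands were the highest, with no overlap with the other 3 groups, and of the pregnant arrays M55H in hypergravity and M42S at standard gravity reached into the lactating hypergravity range.

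Lactation raised Slc34a2 by 1.94 ± 0.29 at standard gravity (3.84-fold, adjusted p = 6.92e-05) and by 1.08 ± 0.31 in hypergravity (2.11-fold, adjusted p = 0.013). The call in hypergravity was lost without the arrays carrying markers of another tissue (1.07, adjusted p = 0.068) and with only the hypergravity groups in the fit (1.08, adjusted p = 0.08), and the sign turned with M210H kept (-0.44, adjusted p = 0.796). In lactation Slc34a2 was 1.28 ± 0.31 lower in hypergravity than at standard gravity (2.43-fold, adjusted p = 0.0106), and the interaction was -0.86 ± 0.42 (adjusted p = 0.356). With M210H kept, the gravity difference was -2.80 (adjusted p = 0.116) and the stage difference at standard gravity missed the threshold (adjusted p = 0.175). A210H, a lactating hypergravity array left out for its mammary markers and also carrying muscle markers, stood at 11.56 for Slc34a2. That is at the level of the lactating standard gravity glands (11.06 to 11.55), not of the lactating hypergravity glands in use.

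Of the other phosphate transporters, Slc34a3 was 0.28 ± 0.10 higher in lactation at standard gravity (adjusted p = 0.0422) and Slc34a1 was not called in mammary gland. Slc34a3 was dim, at 2.72 ± 0.18 (SD) over the 19 mammary arrays, where array medians were 4.32 to 4.56. Slc20a1, a widely expressed sodium-phosphate carrier, averaged 8.67 ± 0.59 in lactating and 9.48 ± 0.36 in pregnant hypergravity glands, a fall of 0.81 ± 0.25 in lactation (adjusted p = 0.0217). That call was lost without M59H, M50H or M212H (-0.73, -0.74 and -0.53), and M50H and M212H carried muscle markers. It was also lost without all the arrays carrying markers of another tissue. Slc20a2, its close relative, averaged 7.15 ± 0.47 in lactating and 6.32 ± 0.71 in pregnant hypergravity glands (0.83 ± 0.35, adjusted p = 0.081), and 6.96 ± 0.17 in lactating and 6.48 ± 0.67 in pregnant glands at standard gravity (0.48 ± 0.33, adjusted p = 0.298).

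Slc5a5 is the sodium-iodide symporter that concentrates iodide for milk. It gave 3.20, 3.08, 3.63 and 3.33 in lactating hypergravity glands, and 4.73, 4.46, 4.36, 3.73 and 5.72 in lactating standard gravity glands. Pregnant glands gave 3.39, 2.72, 3.23, 3.04 and 3.54 in hypergravity, and 3.05, 2.72, 3.49, 3.00 and 2.96 at standard gravity. Lactating standard gravity glands lay above these other 3 groups on all 5 arrays, and the array medians of this set, 4.32 to 4.56, show that most values of the gene are dim.

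Lactation raised Slc5a5 by 1.55 ± 0.27 at standard gravity (2.94-fold, adjusted p = 0.000249), and in hypergravity the stage difference was 0.12 ± 0.28 (adjusted p = 0.789). In lactation it was 1.29 ± 0.28 lower in hypergravity than at standard gravity (2.44-fold, adjusted p = 0.00592). The interaction was -1.43 ± 0.39 (adjusted p = 0.0458), and that call was lost on leaving out any of 14 of the 19 arrays (highest adjusted p 0.0906, without M203H) and without the arrays carrying other markers (-1.39, adjusted p = 0.167). Slc26a4, an iodide and chloride exchanger of the thyroid and inner ear, stayed between means of 2.74 and 2.87 in the 4 mammary groups, with no call.

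Slc5a1, the sodium-glucose cotransporter of gut and kidney, gave 3.93, 3.01, 3.49 and 3.57 in lactating hypergravity glands and 4.30, 4.06, 4.83, 4.80 and 3.60 in lactating standard gravity glands, and the lactating groups overlapped at 3.60 to 3.93. Pregnant glands gave 4.01, 3.60, 3.82, 3.31 and 3.42 in hypergravity, and 3.50, 3.37, 3.41, 3.34 and 3.62 at standard gravity. Its mean was 0.87 ± 0.22 higher in lactation than in pregnancy at standard gravity (adjusted p = 0.00447), and 0.82 ± 0.23 lower in lactation in hypergravity than at standard gravity (adjusted p = 0.0304). The gravity call was lost without any of M212H, M217H, M206H, M216S, M219S or M214S (-0.65 to -0.84, adjusted p up to 0.115). The interaction was -1 ± 0.32 (adjusted p = 0.0944).

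Slc5a6 imports the vitamins biotin and pantothenate. It gave 7.50, 7.49, 7.17 and 7.34 in lactating hypergravity glands, and 8.41, 8.38, 8.63, 8.75 and 8.55 in lactating standard gravity glands. Pregnant glands gave 9.12, 8.47, 9, 8.54 and 8.54 in hypergravity, and 8.77, 8.73, 8.68, 8.42 and 8.74 at standard gravity. Only the lactating hypergravity group was low, and it overlapped none of the other 3 groups given here.

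Slc5a6 was 1.17 ± 0.14 lower in hypergravity than at standard gravity in lactation (2.25-fold, adjusted p = 3.52e-05) and 1.36 ± 0.14 lower in lactation than in pregnancy in hypergravity (2.57-fold, adjusted p = 8.1e-06). At standard gravity the stage difference was -0.12 ± 0.14 (adjusted p = 0.551). The interaction was -1.24 ± 0.20 (adjusted p = 0.00133). These calls held without each array in turn and under the alternatives tried, and A210H, which was left out, stood at 7.93.

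Slc9a2 and Slc9a4 exchange sodium for protons at epithelial membranes, and their genes lie next to each other on chromosome 9, Slc9a4 at chr9:50320948-50375336 and Slc9a2 at chr9:50427612-50510043, with 52275 bases between them. Slc9a2 gave 2.82, 3.21, 2.79 and 2.88 in lactating hypergravity glands and 3.80, 4.26, 4.24, 4.22 and 3.97 in lactating standard gravity glands. In pregnancy Slc9a2 gave 3.18, 2.86, 3.13, 2.69 and 3.09 in hypergravity, and 2.70, 2.68, 3.59, 3.46 and 3.01 at standard gravity. For Slc9a2 all lactating standard gravity arrays lay above those of the other 3 standard gravity and hypergravity mammary groups. In the separate microgravity set, all from pregnant rats, FDSA, FDSD and FLTC stood at 4.41, 4.40 and 4.20. Array medians in that set were 4.87 to 5.02, against 4.32 to 4.56 on the other arrays. Slc9a2 levels of the microgravity set therefore cannot be compared with those of the other mammary groups.

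Slc9a4 gave 2.45, 2.86, 2.77 and 2.50 in lactating hypergravity glands and 5.47, 3.22, 4.09, 3.27 and 3.47 in lactating standard gravity glands. In pregnancy Slc9a4 gave 2.50, 2.71, 2.50, 2.22 and 2.81 in hypergravity, and 2.60, 2.75, 2.58, 2.65 and 2.89 at standard gravity. The lactating standard gravity group again lay above these other 3, with M216S well above its other 4 arrays. The group means of both genes, 4.10 ± 0.20 for Slc9a2 and 3.90 ± 0.94 for Slc9a4 in lactating standard gravity glands, stayed below the array medians of 4.32 to 4.56.

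Stage raised Slc9a2 by 1.01 ± 0.18 (adjusted p = 0.00026) and Slc9a4 by 1.21 ± 0.30 (adjusted p = 0.00484) at standard gravity, and the stage differences in hypergravity were -0.06 ± 0.19 and 0.10 ± 0.32 (adjusted p = 0.842 and 0.858). In lactation hypergravity lowered Slc9a2 by 1.17 ± 0.19 (adjusted p = 0.000397) and Slc9a4 by 1.26 ± 0.32 (adjusted p = 0.0174). The interaction was called for Slc9a2 (-1.07 ± 0.26, adjusted p = 0.0213), though not without M217H (-1.03, adjusted p = 0.0505), and not for Slc9a4 (-1.11 ± 0.44, adjusted p = 0.22). The gravity call of Slc9a4 was lost without M203H (-1.19, adjusted p = 0.0569) or M206H (-1.21, adjusted p = 0.0532), and with only the lactating groups in the fit (adjusted p = 0.0712).

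Among the transporters that fell in lactation, Slc26a8, an anion transporter best known from sperm, had the largest difference in hypergravity. It gave 3.75, 3.80, 3.63 and 3.77 in lactating hypergravity glands and 6.48, 5.86, 6.84, 3.92 and 6.02 in pregnant hypergravity glands. At standard gravity it gave 3.68, 3.89, 4.24, 3.95 and 4.11 in lactating glands and 5.74, 4.59, 4.78, 5.52 and 5.62 in pregnant glands. Lactating glands were lower at both gravities without overlap, and M56H, the pregnant array with hepatocyte markers, was the low one of its group.

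The fall of Slc26a8 was 2.09 ± 0.41 in hypergravity (4.25-fold, adjusted p = 0.00115) and 1.28 ± 0.38 at standard gravity (2.42-fold, adjusted p = 0.0152). Slc26a6, a chloride-oxalate-bicarbonate exchanger, was 1.10 ± 0.22 lower in lactation in hypergravity (adjusted p = 0.00147) and 0.84 ± 0.21 lower at standard gravity (adjusted p = 0.00458). Slc4a1ap was 0.88 ± 0.15 lower in hypergravity (adjusted p = 0.000493) and 0.63 ± 0.14 lower at standard gravity (adjusted p = 0.00236). Macrophage markers also moved with stage: 6 of 8 were lower in lactation at standard gravity (median -1.53) and 3 of 8 in hypergravity (2 higher, median -0.51), and their part in these falls was not tested.

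Slc4a11, a proton-linked carrier of the corneal endothelium, gave 2.99, 3.17, 3.18, 2.86 and 3.60 in lactating and 5.07, 4.31, 4.88, 4.30 and 5.41 in pregnant glands at standard gravity. It was 1.63 ± 0.31 lower in lactation (3.10-fold, adjusted p = 0.000592), the largest fall among members at standard gravity. Slc12a7, a potassium-chloride cotransporter, gave 6.49, 6.63, 6.48, 6.19 and 6.23 in lactating and 7.97, 7.47, 8.06, 7.29 and 7.81 in pregnant glands at standard gravity. Its difference was -1.32 ± 0.22 (2.49-fold, adjusted p = 0.000225), and -0.62 ± 0.24 in hypergravity (adjusted p = 0.0587). A dimmer probe set of Slc12a7, with a mean of 2.95, gave 0.02 at standard gravity. Slc4a3, a chloride-bicarbonate exchanger of heart and brain, was 0.80 ± 0.22 lower in lactation at standard gravity (adjusted p = 0.00964).

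Smaller calls were less steady. At standard gravity the differences of Slc26a3 (0.33), Slc34a3 (0.28) and Slc12a8 (-0.36) lost their calls on leaving out any of 6, 10 and 11 arrays. Over the 19 mammary arrays these genes averaged 2.81, 2.72 and 3.09, below the array medians of 4.32 to 4.56. In hypergravity lactation went with higher Slc8a1, the plasma membrane sodium-calcium exchanger (0.79 ± 0.19, adjusted p = 0.00501, with a dimmer probe set at -0.23 and not called). Slc12a2, the sodium-potassium-chloride cotransporter of secretory epithelia, was 0.42 ± 0.14 higher there (adjusted p = 0.0316, lost without M203H, M60H or M217H) and Slc12a9 0.49 ± 0.17 higher (adjusted p = 0.04, lost without any of 6 arrays). Lower there were Slc12a5 by 0.73 ± 0.21 (adjusted p = 0.0122), Slc12a4 by 0.56 ± 0.18 (adjusted p = 0.0292, lost without any of 5 arrays), Slc12a3 by 0.50 ± 0.18 (adjusted p = 0.0385, lost without any of 6) and Slc26a10 by 0.44 ± 0.16 (adjusted p = 0.0421, lost without any of 10). Slc12a9 was also 0.64 ± 0.17 higher in hypergravity than at standard gravity in lactation (adjusted p = 0.0241, lost without M203H, M206H, M201S or M202S). With M210H kept, the stage differences of Slc12a2 and Slc12a4 in hypergravity were 0.19 and -0.28 and were not called. With only the groups compared in the fit, the calls for stage of Slc26a3 and Slc34a3 at standard gravity, those of Slc12a2, Slc12a3, Slc12a4, Slc12a9, Slc20a1 and Slc26a10 in hypergravity and that for gravity in lactation of Slc5a1 were lost.

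Slc4a7, a sodium-bicarbonate cotransporter that moves no net charge, gave different answers by probe set. Its brighter probe set differed by -0.34 in hypergravity and 0.26 at standard gravity between lactation and pregnancy (adjusted p = 0.662 and 0.745). The dimmer one rose by 1.12 in hypergravity and 1.39 at standard gravity (adjusted p = 0.00297 and 0.000233).

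Genes that work beside these families were read from 6 lists, of which 101 of 115 genes were on the array. Their counts stand beside 34.1% of all probe sets called for stage at standard gravity (16.8% higher and 17.3% lower), 29.3% for stage in hypergravity (14.6% in each direction) and 9.43% for gravity in lactation (4.49% higher and 4.94% lower). Among epithelial channels, 9 of 31 rose and 4 fell in lactation at standard gravity, and 5 rose and 3 fell in hypergravity. In lactation 3 of 31 were higher and 6 lower in hypergravity than at standard gravity. The sodium channel subunits Scnn1b (6.33 ± 0.15 in hypergravity and 4.34 ± 0.24 at standard gravity, adjusted p = 0.000695) and Scnn1g (5.39 ± 0.34 in hypergravity and 3.52 ± 0.41 at standard gravity, adjusted p = 7.72e-05) were higher there, while the potassium channels Kcnk5 (9.91 ± 0.34 in hypergravity and 11.60 ± 0.50 at standard gravity, adjusted p = 0.0229) and Kcnn4 (4.54 ± 0.86 in hypergravity and 6.21 ± 0.69 at standard gravity, adjusted p = 0.00504) were lower.

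Carbonic anhydrases make bicarbonate from carbon dioxide. Of 14, 3 rose and 2 fell in lactation at standard gravity, where 16.8% of all probe sets rose and 17.3% fell, and 4 rose and 2 fell in hypergravity, where 14.6% rose and 14.6% fell. Car6, the secreted form, averaged 7.87 ± 0.89 in hypergravity and 6.11 ± 0.96 at standard gravity in lactation (adjusted p = 0.014), and Car5b, a mitochondrial form, averaged 7.35 ± 0.45 in hypergravity and 9.37 ± 0.56 at standard gravity (adjusted p = 0.00535). Among regulators of cation-chloride cotransport and sodium-proton exchange, 6 of 17 rose and 5 fell in lactation at standard gravity, and 3 were higher and 2 lower in hypergravity than at standard gravity in lactation, a comparison that called 4.49% of all probe sets higher and 4.94% lower. Stk39, the kinase that activates Slc12a2, was 1.38 lower in hypergravity in lactation (7.48 ± 0.57 in hypergravity and 8.86 ± 0.26 at standard gravity, adjusted p = 0.000468), and Nedd4l, a ubiquitin ligase that removes sodium channels, was 2.39 higher (7.84 ± 0.35 in hypergravity and 5.46 ± 0.45 at standard gravity, adjusted p = 0.000109). The vesicular calcium pump Atp2c2 rose by 3.99 in lactation at standard gravity (adjusted p = 2.16e-06) and was 2.80 lower in hypergravity than at standard gravity in lactation (adjusted p = 0.000348). The sodium pump and its FXYD subunits had 1 of 11 higher and 2 lower in lactation at standard gravity, 2 higher and 1 lower in hypergravity, and 0 calls for gravity in lactation. Phosphate handling genes outside the families had 0 of 14 higher and 3 lower in lactation at standard gravity, with Fgfr1 (-1.51) and Slc37a4 (-1.12) among them, and 2 higher for gravity in lactation. Vesicular calcium, zinc and proton transport had 2 of 14 higher and 5 lower in lactation at standard gravity, 2 higher and 2 lower in hypergravity, and for gravity in lactation Atp2c2 was the 1 call. Gravity in pregnancy called 0 genes of these 6 lists and 0.00322% of all probe sets.

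In liver the stage comparison at standard gravity called 1 of 50 members, against 0.622% of all probe sets (0.341% higher and 0.28% lower). That gene was Slc34a2, at 9.24, 8.40, 6.84, 6.48 and 5.73 in lactating and 4.70, 2.91, 4.03, 4.85 and 3.74 in pregnant livers. Every lactating liver lay above every pregnant one, and the lactating livers were widely spread. The difference was 3.29 ± 0.61 (9.80-fold, adjusted p = 0.0126), and the call held without each array in turn (highest adjusted p 0.0446, without L201S).

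In hypergravity Slc34a2 gave 6.77, 7.65, 6.80, 9.31 and 7.14 in lactating and 4.91, 6.01, 6.30, 5.41 and 4.09 in pregnant livers, again without overlap. Its difference of 2.19 ± 0.61 missed the threshold (adjusted p = 0.0533), in a comparison that called 0 of 50 members and 3.23% of all probe sets (1.22% higher and 2.01% lower). Slc24a3, a potassium-dependent sodium-calcium exchanger, followed at -2.02 ± 0.57 (adjusted p = 0.0563). Mammary and milk markers in liver ran from 4.67 to 5.60 in lactating and 4.53 to 6.30 in pregnant hypergravity livers, and from 4.56 to 6.17 in lactating and 4.72 to 5.30 in pregnant standard gravity livers.

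Hypergravity against standard gravity called 0 of 50 members in liver in lactation (0.406% of all probe sets, 0.0934% higher and 0.312% lower) and 0 in pregnancy (0.103%, 0.058% higher and 0.0451% lower). The liver interaction called 0 members (0.126%, 0.0515% higher and 0.0741% lower). At an unadjusted p under 0.05 these 3 comparisons held 4238, 2507 and 3500 probe sets. The smallest p among members in lactation were for Slc4a7 (-1.04, adjusted p = 0.204) and Slc4a4 (0.36, adjusted p = 0.267), and in pregnancy for Slc20a1 (-0.66, adjusted p = 0.386) and Slc12a8 (-0.33, adjusted p = 0.517). The signal of Slc4a7 was 4.20 on L212H, against 5.61 to 6.51 on the other 4 lactating hypergravity livers and 6.16 to 7.57 on the lactating standard gravity livers, and without L212H its difference was -0.63 (adjusted p = 0.353). L212H was also unusual as a whole: the upper quartile of its signals was 6.53, against 6.95 to 7.02 on those other 4 livers. The part of this in the liver results was not tested. Without L210H, the liver of the rat whose other arrays were left out, the stage comparison in hypergravity called 3 members and the gravity comparison in lactation called 1. The shares of all probe sets called without L210H are not given here, so these counts have no such comparison.

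In adipose tissue 0 of 50 members were called in any comparison by limma. Of all probe sets 0.00322% were called for stage at standard gravity, and 0% in the other 4 comparisons. At an unadjusted p under 0.05 these held 1852 probe sets for stage at standard gravity, 1141 for stage in hypergravity, 709 for gravity in lactation, 1283 for gravity in pregnancy and 1055 for the interaction. Slc5a3 (0.60 for stage at standard gravity, adjusted p = 0.758) and Slc34a2 (0.51 for gravity in lactation, adjusted p = 1) had the smallest p among members in their comparisons. In the others the smallest p belonged to Slc12a9 (0.33 for stage in hypergravity), Slc9a5 (-0.32 for gravity in pregnancy) and Slc34a2 (0.68 for the interaction), each with an adjusted p of 1.

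The labels do not say whether the arrays lettered A to D in the microgravity set came from separate rats, so p-values there measure the spread between these arrays. In this set 1 member was called lower in microgravity than in the flight control, against 0.367% of all probe sets (0.271% higher and 0.0966% lower). Slc12a7 gave 7.32, 7.61, 7.46 and 7.34 in microgravity, and 7.95, 7.96, 8.08 and 8.19 in the flight control. In the vivarium control it gave 8.06, 8.05, 7.71 and 7.80, so the microgravity arrays lay below both controls. The difference from the flight control was -0.61 ± 0.12 (1.53-fold, adjusted p = 0.0497), and that call was lost on leaving out any of the 12 arrays (adjusted p from 0.0531 to 0.163).

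Against the vivarium control 0 members were called (0.493% of all probe sets, 0.319% higher and 0.174% lower, and 2951 at an unadjusted p under 0.05), with Slc4a7 at 0.54 ± 0.13 (adjusted p = 0.096) and Slc12a7 at -0.47 ± 0.12 (adjusted p = 0.119). The flight control against the vivarium control called 0 members and 0.00322% of all probe sets (2851 at an unadjusted p under 0.05), with Slc5a6 at -0.64 ± 0.14 (adjusted p = 0.36) and Slc12a5 at 0.62 ± 0.17 (adjusted p = 0.375). Slc20a1 and Slc20a2, which are plotted with Slc12a7 and Slc4a7 and, like Slc4a7, were chosen after their values were seen, differed from the flight control by 0.41 ± 0.11 and 0.73 ± 0.24 (adjusted p = 0.142 and 0.214). Slc4a4 and Slc34a2 had no call in this set.

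**Figure D3:**
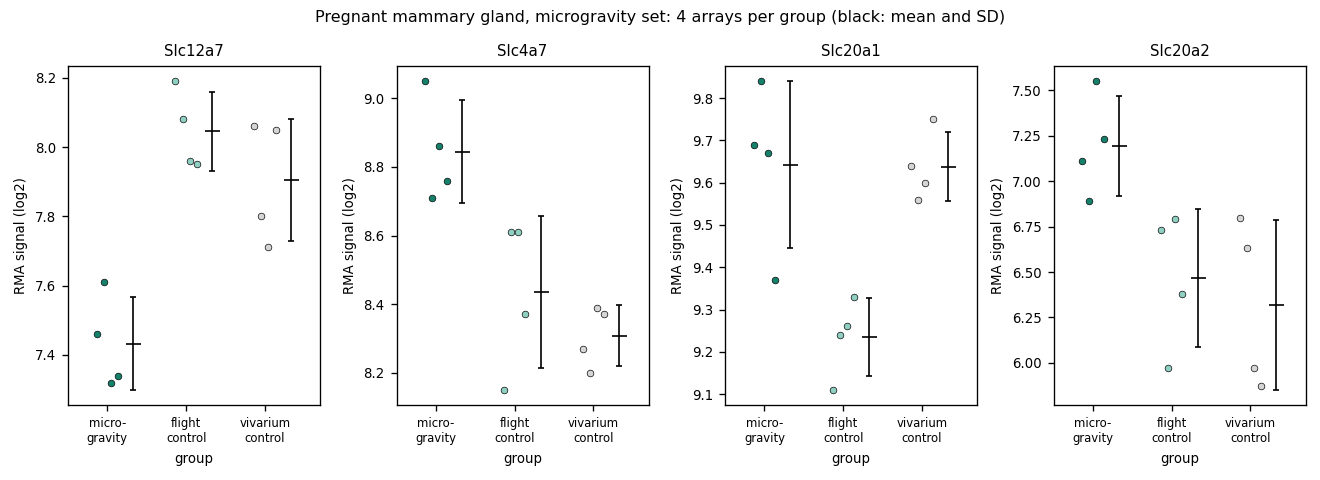
RMA signal (log2, vertical axes, which do not start at 0) of 4 genes on each of 4 arrays per group in pregnant mammary gland, with group mean and SD in black. Slc12a7 lies at 7.32 to 7.61 in microgravity, below both controls.

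More members and more probe sets were called between the 3 tissues than between the conditions. The tissue comparisons held more arrays on each side, so these counts do not compare the sizes of the differences. For the brighter probe set of Slc4a4 the gravity difference in lactating mammary gland given above was larger than its differences between mammary gland and the other tissues. Under the alternatives that gravity difference ran from 2.88 to 4.58 and mammary minus liver from -3.91 to -2.85, so the sizes overlap. The mammary mean in the tissue differences of Slc4a4 also includes the high lactating hypergravity glands. Between mammary gland and liver 15 members were higher and 15 lower in mammary gland, with 66.6% of all probe sets called (32.1% higher and 34.4% lower). Centring each array on its median moved the median of all probe sets by more than 0.1, to -0.17 against -0.05, and gave 13 higher and 26 lower members. Against adipose tissue 16 members were higher and 10 lower in mammary gland (52% of all probe sets, 26.4% higher and 25.6% lower). Between liver and adipose tissue 20 were higher and 9 lower in liver (61.7%, 32.8% higher and 28.9% lower), and centring moved the median of all probe sets to 0.19 against 0.05 and gave 27 higher and 8 lower members. Without centring, the counts for members are near those of the whole array. The share of all probe sets called with centred arrays is not given here, so the centred counts have no such comparison. Differences here weight the 4 groups of a tissue equally. Adipose RNA was extracted with another kit than mammary and liver RNA, per the labels, so tissue and kit cannot be told apart in comparisons with adipose tissue.

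Slc34a2 had the highest mammary level among the tissues. It averaged 10.01 ± 1.04 (SD over 19 arrays) in mammary gland, 6.07 ± 1.78 (20 arrays) in liver and 2.58 ± 0.32 (19 arrays) in adipose tissue. Mammary gland stood 3.95 ± 0.22 above liver (adjusted p = 4.64e-22) and 7.43 ± 0.22 above adipose tissue (adjusted p = 6.39e-33), and liver 3.48 ± 0.22 above adipose tissue (adjusted p = 8.75e-20). Mammary gland and liver overlapped, and mammary gland and adipose tissue did not. All adipose values of Slc34a2 (2.14 to 3.40) lay below the array medians of 4.32 to 4.56, and RMA gives no detection call, so the size of the differences from adipose tissue rests on a dim signal.

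Slc4a4 ran the other way, at 6.23 ± 1.90 in mammary gland, 10.14 ± 0.24 in liver and 9.06 ± 0.58 in adipose tissue. Mammary gland was 3.76 ± 0.18 lower than liver (adjusted p = 3.94e-25) and 2.66 ± 0.18 lower than adipose tissue (adjusted p = 1.95e-18). Its mammary arrays overlapped those of both other tissues, with the lactating hypergravity glands at 9.02 to 10.07, liver at 9.85 to 10.77 and adipose tissue at 7.34 to 10.07.

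Slc26a1, the sulfate and oxalate exchanger of the hepatocyte, averaged 3.42 ± 0.46 in mammary gland, 9.02 ± 0.48 in liver and 3.17 ± 0.23 in adipose tissue. It was 5.61 ± 0.11 lower in mammary gland than in liver (adjusted p = 3.25e-41) and 5.86 ± 0.11 higher in liver than in adipose tissue (adjusted p = 4.85e-42), without overlap in either. The mammary and adipose means of Slc26a1 lay below the array medians too, so these sizes also rest on a dim signal. Slc24a3 averaged 4.69 ± 0.65 in mammary gland, 4.34 ± 1.17 in liver and 7.35 ± 1.05 in adipose tissue, 2.67 ± 0.29 lower in mammary gland (adjusted p = 2.31e-11) and 3.02 ± 0.29 lower in liver (adjusted p = 2.1e-13) than in adipose tissue.

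**Figure D4:**
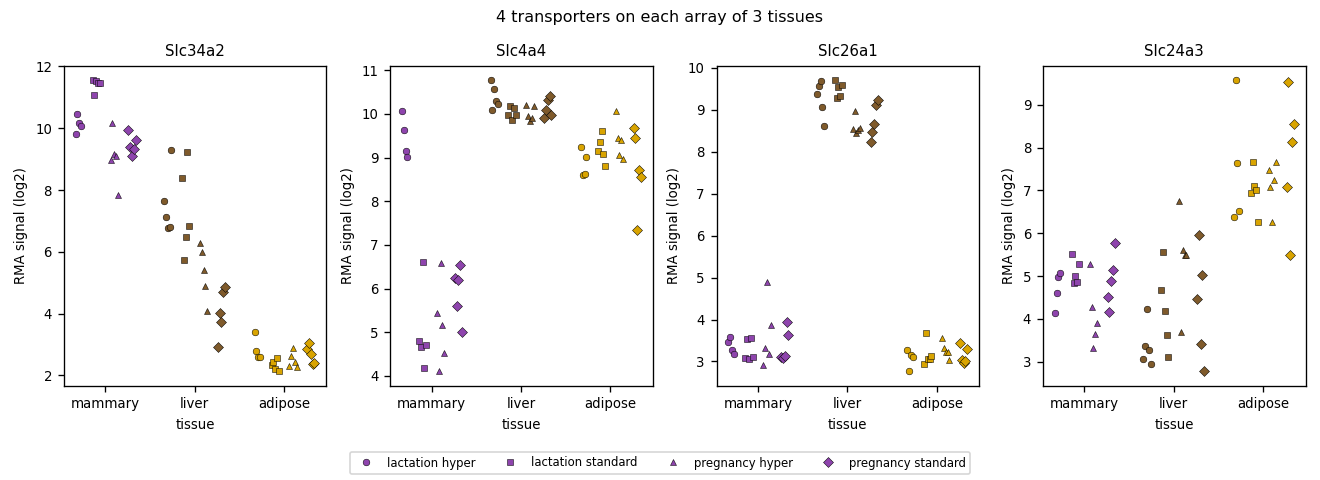
RMA signal (log2, vertical axes, which do not start at 0) of 4 genes on each array of mammary gland, liver and adipose tissue; marker shapes give the stage and gravity. Slc34a2 is lowest in adipose tissue, Slc26a1 is high in liver alone, and Slc24a3 has its highest mean in adipose tissue.

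Slc5a3 was 2.57 ± 0.11 higher in mammary gland than in liver (adjusted p = 1.02e-27) and 1.59 ± 0.11 higher than in adipose tissue (adjusted p = 1.68e-18). Under the alternatives, among them the mean over a gene's probe sets, these ran from 1.40 to 2.57 and from 0.93 to 1.61. Mammary minus adipose likewise ran from -2.97 to -1.35 for Slc24a3 and from -2.14 to -1.02 for Slc8a1, so the sizes depend on the processing. Every one of these calls was kept. The phosphate carriers Slc20a1 and Slc20a2 divided by tissue. Slc20a1 was higher in mammary gland than in liver (1.73 ± 0.11, adjusted p = 1.69e-19) and than in adipose tissue (1.77 ± 0.11, adjusted p = 2.8e-19). Slc20a2 was 2.21 ± 0.14 lower in mammary gland than in liver (adjusted p = 2.85e-19) and 2.28 ± 0.14 higher in liver than in adipose tissue (adjusted p = 8.25e-20). Slc4a7 was 1.76 ± 0.21 higher in mammary gland than in liver (adjusted p = 1.17e-10), and Slc5a6 1.44 ± 0.14 higher than in liver and 1.57 ± 0.14 higher than in adipose tissue (adjusted p = 7.68e-13 and 1.53e-13).

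In liver Slc26a8 averaged 6.08 ± 0.61, against 3.44 ± 0.28 in adipose tissue (2.65 ± 0.16 higher, adjusted p = 3.67e-20), and mammary gland averaged 4.75 ± 1.07, which was 1.39 ± 0.16 below liver (adjusted p = 1.73e-10). Adipose tissue was the highest of the 3 for Slc26a3, a chloride-bicarbonate exchanger of the colon (2.59 ± 0.20 above both mammary gland and liver), for Slc9a9, an endosomal sodium-proton exchanger (2.46 ± 0.17 above mammary gland and 1.56 ± 0.17 above liver) and for Slc8a1 (2.03 ± 0.17 above mammary gland and 1.81 ± 0.17 above liver). Adipose arrays A217H and A48S carried muscle markers, and without them, M212H, M50H, M56H and M52S the 3 tissue comparisons called 29, 27 and 30 members. The shares of all probe sets called without these arrays are not given here.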

How the data were processed

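TRIzol was used to extract RNA of mammary gland and liver, an RNeasy Lipid kit that of adipose tissue, and RNA was amplified and biotin-labelled from 25 ng with the NuGEN Ovation system, per the labels' protocols. The authors deposited log2 signals of 31042 probe sets on 72 arrays, made by RMA per the submitters' processing notes. RMA corrects background, equalizes the distributions of arrays and summarises probes, so a low value is no absence and levels of different probe sets are not comparable. Which arrays were processed together is not given in the sources used here. The number of arrays limits the precision.

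The platform table named 20826 probe sets with 1 gene symbol, 436 with several and 9780 with none. Members and gene lists were chosen with earlier results of these data known. Group means were fitted with limma 3.58.1 in R 4.3.3 (19 mammary, 20 liver, 19 adipose, 12 microgravity and 58 arrays across tissues), on the deposited log2 values with no further scaling. Tests were two-sided and adjusted over all probe sets, with a threshold of 0.05. The tests were run on simulated data first. Named genes were the called members with the largest changes, a fixed list of milk ion transporters, and otherwise those with the smallest p. No arrays were duplicates (highest correlation 0.9926).

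By their codes the same 20 rats gave the 3 tissues. Arrays of 1 rat deviated together weakly (mean r 0.14 over 57 pairs, -0.05 to 0.33, against -0.04 over 224 pairs of other rats), and the consensus correlation within a rat was 0.097. Alternatives were a trended robust variance, the mean over a gene's probe sets, a filter on dim probe sets, centred arrays, replicate blocks, exchanged or marker-carrying arrays kept or left out, only the groups compared, and each array left out.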

Additional observations from a re-analysis of the deposited data

Results flagged for a closer look

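By limma's interaction term on the log2 scale, the stage difference (lactation minus pregnancy) in mammary gland differed between gravities for 4 of the 50 members. Over all probe sets 4.03% were called. The interaction was 5.23 for Slc4a4 (adjusted p = 0.000201), -1.24 for Slc5a6 (adjusted p = 0.00133), -1.07 for Slc9a2 (adjusted p = 0.0213) and -1.43 for Slc5a5 (adjusted p = 0.0458). With both probe sets of Slc4a4 averaged it was 3.15, and the dimmer probe set alone was not called. The Slc5a5 call was lost on leaving out any of 14 of the 19 arrays, and without the arrays carrying other markers (adjusted p = 0.167). That of Slc9a2 was lost without M217H (adjusted p = 0.0505).

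An array far from the others of its group was found in 4 of 51 gene-and-group pairs tested by Dixon's criterion, which chance flags in about 1 of 20 groups. Slc4a4 stood at 6.60 on M214S, against 4.19 to 4.81 on the other 4 lactating standard gravity mammary arrays. Slc34a2 stood at 11.06 on M202S, against 11.45 to 11.55 on the others of the same group. Slc5a6 stood at 8.42 on M57S, against 8.68 to 8.77 on the other pregnant standard gravity arrays. Slc12a7 stood at 6.99 on M56H, against 7.86 to 8.19 on the other pregnant hypergravity arrays, and M56H carried hepatocyte markers at 9.18 on the log2 scale, whose part in this value was not tested.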

How the results depend on the processing

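In mammary gland the counts of called transporters ran from 12 to 16 for stage at standard gravity, 11 to 19 for stage in hypergravity, 6 to 10 for gravity in lactation and 2 to 5 for the interaction on leaving out each array in turn (2 without M217H). A filter on dim probe sets, which removes many members before the test, left 8 calls for stage at standard gravity against 15, and fitting only the groups compared, with fewer arrays behind the spread, left 8 for stage in hypergravity against 15. In liver the stage comparison in hypergravity, with 0 calls, had 1 with a trended robust variance, with the mean over probe sets and with only the groups compared, 2 with the dim filter, and 0 to 3 on leaving out 1 array (3 without L210H). Leaving out 1 array gave 1 to 2 calls for stage at standard gravity in liver and 0 to 1 for gravity in lactation. The shares of all probe sets called in these alternative fits are not given here, so the counts have no such comparison.

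For microgravity against the flight control the 1 call was lost (0) with the mean over probe sets, centred arrays, the arrays with muscle markers left out, only the groups compared, the letter as a replicate block, and each array left out (0 to 0). Against the vivarium control 1 member was called with only the groups compared and 0 to 1 on leaving out 1 array. Arrays with the same letter did not deviate together (mean r -0.06 over 12 pairs, against 0.02 over 36 others), so the letter was taken as a number only; the block gave Slc12a7 -0.61 (adjusted p = 0.106). Over all probe sets 114 were called against the flight control, and for mammary microgravity minus flight control 43 with the block, 23 with only the groups compared and 208 with centred arrays. Between liver and adipose tissue the dim filter left 19 of 29 calls. The rat as a replicate block changed no call of a named transporter and gave 31, 26 and 31 calls in the tissue comparisons. For the dim filter and the rat block the shares of all probe sets called are not given here. With M210H and A210H kept in their labelled groups the stage difference of Slc34a2 in hypergravity turned to -0.44. The cause of these changes was not tested beyond what the alternatives' construction shows.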

Other observations

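The exchanged arrays M210H (labelled mammary gland) and A210H (labelled adipose tissue) were used in no comparison. Slc34a2 stood at 2.54 on M210H and 11.56 on A210H, Slc5a3 at 6.35 and 9.55, Slc5a6 at 7.29 and 7.93, and Slc4a4 at 9.85 and 7.32, in that order of arrays. On A210H Slc5a5 was at 3.09, Slc9a2 at 3.42 and Slc9a4 at 2.87. The lactating hypergravity mammary arrays in use ran from 9.02 to 10.07 for Slc4a4 and from 9.81 to 10.46 for Slc34a2, so A210H lay below that range for Slc4a4 and above it for Slc34a2. For Slc34a2 A210H was at the level of the lactating standard gravity mammary arrays (11.06 to 11.55).

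In liver, Slc17a1, a sodium-phosphate carrier outside these families, was higher in lactation in hypergravity (1.17, adjusted p = 0.000127) and at standard gravity (0.92, adjusted p = 0.00377). In the microgravity set the potassium channel gene Kcnj15 averaged 9.06 in microgravity and 8.03 in the flight control (1.03, adjusted p = 0.0249), and it was 0.85 above the vivarium control (adjusted p = 0.0428). These genes were picked from the partner lists after their values were seen.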
